A study of Mus musculus with 6 samples.

Results

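Glutathione transferases of the alpha, pi and theta classes, with the zeta class enzyme Gstz1 and the microsomal enzyme Mgst1, were described in mouse liver as 10 genes of the 23474 in the deposited expression table. The members were taken by gene symbol: Gsta2, Gsta3, Gsta4, Gstp1, Gstp2, Gstt1, Gstt2, Gstt3, Gstz1 and Mgst1. All 10 were found in the table and all 10 passed the filter on low values. The mice were male C57BL/6J, 17 weeks old when the livers were taken. The BT group ate a high-fat diet with 1.5% (w/w) extract of Bangpungtongseong-san, an oriental herbal medicine, for 12 weeks from the age of 5 weeks. The HFD group ate the high-fat diet alone for the same 12 weeks, so both groups carried the fat load and no chow-fed group is analysed here. The study divided 20 mice into 2 groups of 10, and 3 BT and 3 HFD libraries of liver mRNA were analysed. Whether each library holds RNA of 1 mouse or of several is not stated, so the spread on which the p-values rest is that between libraries and may be technical in part.

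Glutathione transferases join the tripeptide glutathione to reactive, fat-loving compounds, which makes them soluble and ready for export from the hepatocyte. Cytosolic members work as dimers and are sorted into classes by sequence, while Mgst1 belongs to an unrelated membrane protein family of the endoplasmic reticulum and the outer mitochondrial membrane. In liver they are known for handling drugs, food toxins and the aldehydes left by lipid peroxidation, and several are induced through the transcription factor NRF2 and the xenobiotic receptors.

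Levels are given in FPKM (fragments per kilobase of transcript and per mapped fragments of the library), a scale per length that allows levels of different genes to be compared. Roughly estimated from the smallest values in the table, the libraries hold 13.8 to 15.8 M fragments each. That estimate uses only values within a fixed window, which by itself bounds the answer, so the true depth may differ. If it held, the weakest member, Gsta2, would rest on about 200 to 290 fragments per library and Mgst1 on about 74680 to 113310. Counting error alone would then be near 7.1% for Gsta2 at the lowest. The FPKM sums of the libraries were 783151 to 812697 for BT and 814680 to 930139 for HFD, with the highest in HFD replicate 2. That library also had the highest HFD value of 8 of the 10 members. HFD replicate 3 lists Alb, the albumin gene, at 0, against 22790 to 27900 FPKM in the other 5 libraries, so a 0 in this table can be a failed estimate; no member was listed at 0. The 9 other hepatocyte markers summed to 16830 to 18040 FPKM in BT and 20350 to 25430 in HFD. Apoa1 (means of 5159 FPKM in BT and 7332 in HFD) and Ttr (3076 in BT and 5221 in HFD) weigh most in that gap. Cps1, Ass1 and Apob changed the other way (0.58, 0.11 and 0.12 on the log2 scale), so the markers do not move together. The lymphocyte markers summed to 2.82 to 6.19 FPKM in BT and 1.96 to 3.54 in HFD. The codes in the sample descriptions hold the letter R in all BT libraries and D in all HFD libraries. The labels do not say what the letter marks, and whatever it marks cannot be told apart from the diet. As the tissue is bulk liver, fewer cells of a type and less RNA per cell cannot be told apart either.

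The members spanned a wide range of levels. Mgst1 was the most abundant, with 4565 to 6655 FPKM over the 6 libraries, and its range did not meet that of any other member. Gsta3 followed at 936.9 to 1141 FPKM, again clear of its neighbours. Gstz1 (456 to 565 FPKM), Gstt1 (305 to 511 FPKM) and Gstp1 (299.6 to 504 FPKM) formed a middle tier whose neighbouring ranges overlapped. Gstt2 stood alone at 72.0 to 109 FPKM. Gstt3 (43.7 to 61.7 FPKM) and Gsta4 (40.7 to 49.4 FPKM) overlapped each other, as did the lowest pair, Gstp2 (18.1 to 28.1 FPKM) and Gsta2 (16.0 to 24.3 FPKM).

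**Figure D1:**
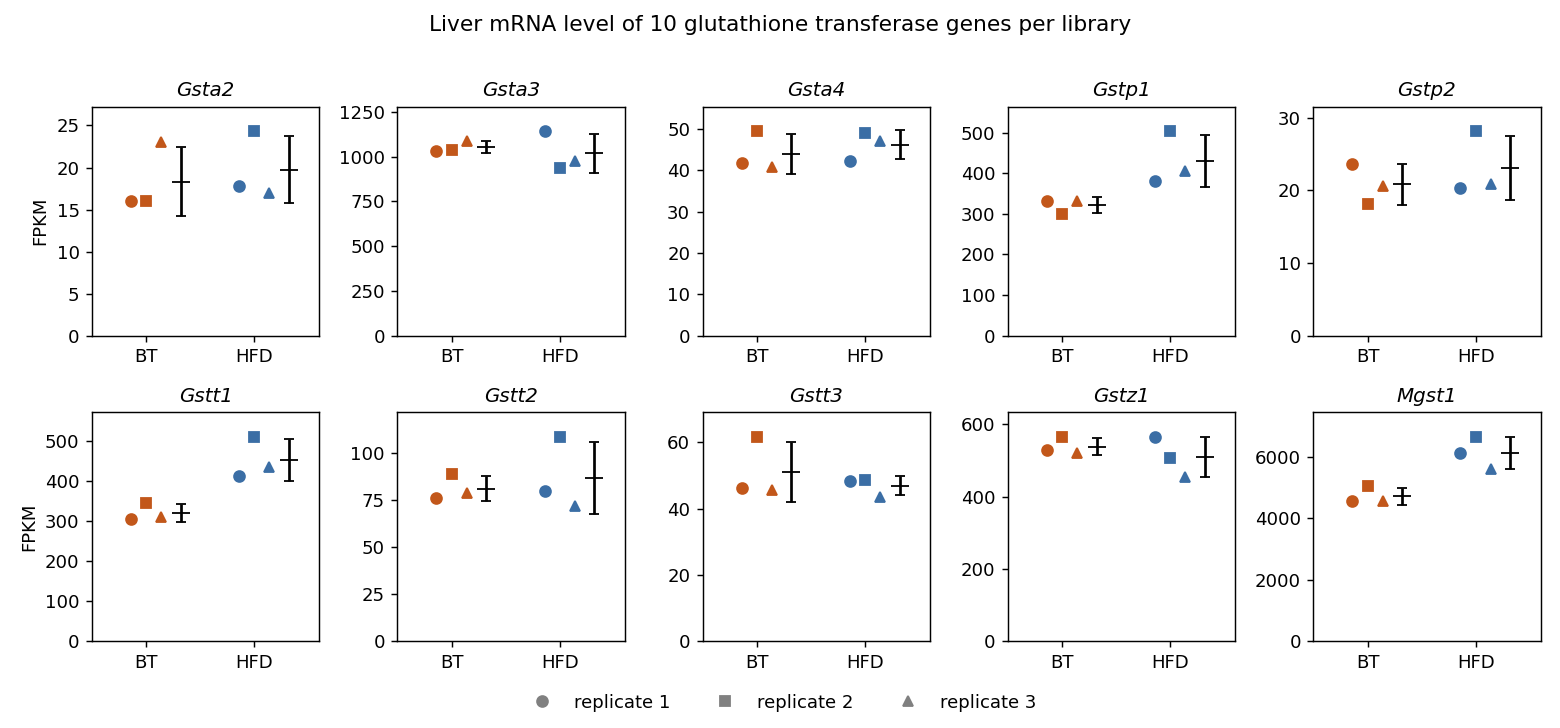
FPKM (linear axes from 0) of each member in the 3 BT and 3 HFD libraries, with the mean and SD of each group as a black bar. Marker shapes stand for replicate numbers, and the labels do not say whether these pair the libraries. BT points lie below all HFD points for Gstp1, Gstt1 and Mgst1, and the groups overlap for the other 7 genes.

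With BT, 1 of the 10 members was lower and none was higher. The test was limma on log2(FPKM + 1), with Benjamini-Hochberg adjustment over the 10476 genes that averaged 1 FPKM or more, and a threshold of 0.05. Over those genes 7.33% were called lower with BT and 6.01% higher, so 1 in 10 is close to the background. Of all calls 45.1% were higher, against 34.7% with median-of-ratios scaling and 71.5% with TPM scaling without Alb and mt-Co1. The 3 BT values lay below the 3 HFD values for Gstp1, Gstt1 and Mgst1, a pattern found in 16.1% of all genes tested; 23.2% had all BT values above all HFD values, so 39.3% did not overlap in either direction, against 3 of the 10 members. The median change of the 10 members was -0.09 on the log2 scale, against 0.07 for all genes tested.

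The called member was Gstt1, a theta class enzyme known for conjugating small halogenated compounds (chromosome 10, 75783813 to 75798584, minus strand). It was at 305, 346 and 310.2 FPKM in the BT libraries and at 412, 511 and 436 FPKM in the HFD libraries. All BT values lay below all HFD values, and the HFD libraries were the more scattered. The means were 321 ± 22.5 FPKM in BT and 453 ± 51.5 FPKM in HFD (SD, n = 3 each), so BT stood at 70.8% of the HFD level. The log2 change was -0.49 ± 0.12 (SE, adjusted p = 0.0325). Gstt1 kept this direction in all 18 alternative settings and passed in 10 of them. It missed the threshold without BT replicate 1, 2 or 3 and without HFD replicate 2 (adjusted p 0.0648 to 0.134).

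Transcript length moved with the change over the whole table. Among tested genes whose longest annotated transcript is under 1000 bases, 41.3% of 526 were called lower with BT and the median change was -0.47. From 1000 to 2000 bases the share was 14.8% of 1864 genes with a median of -0.13, and over 4000 bases it was 1.59% of 3713 genes with a median of 0.20. The longest annotated transcript of Gstt1 has 1105 bases, that of Mgst1 1167 and that of Gstp1 821, against a median of 3245 for the genes tested. After a trend on length and GC content was taken out of each library, Gstt1 differed by -0.21 (adjusted p = 0.148), Mgst1 by -0.15 (adjusted p = 0.377) and Gstp1 by -0.08 (adjusted p = 0.626). No member passed in that setting.

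The other theta genes sit beside Gstt1 on chromosome 10. Gstt3 (75774115 to 75781414) was at 46.3, 61.7 and 45.7 FPKM in BT and at 48.5, 48.8 and 43.7 FPKM in HFD. BT replicate 2 was the highest of the 6 libraries and the others overlapped. Its change was 0.11 ± 0.13 (SE, adjusted p = 0.596), with a 95% interval of -0.20 to 0.41. Gstt2 (75831114 to 75837424), known for acting on sulfate esters, was at 75.9, 88.8 and 78.7 FPKM in BT and at 80.1, 109 and 72.0 FPKM in HFD. The groups overlapped, HFD replicate 2 was the highest, and the change was -0.08 ± 0.16 (adjusted p = 0.749; 95% interval -0.43 to 0.28). The ratio of Gstt1 to Gstt3 within a library was 6.60, 5.62 and 6.80 in BT and 8.50, 10.5 and 9.99 in HFD. The ratio of Gstt1 to Gstt2 was 4.02, 3.90 and 3.94 in BT and 5.14, 4.70 and 6.06 in HFD. Neither ratio overlapped between the diets. A ratio within a library is not moved by scaling the library as a whole, but it can move with transcript length, and the longest transcripts have 1105 bases for Gstt1, 2254 for Gstt2 and 1985 for Gstt3. With the length and GC trend removed the changes were -0.21 for Gstt1, -0.06 for Gstt2 and 0.20 for Gstt3. As deposited they were -0.49, -0.08 and 0.11, so the gaps of Gstt1 to Gstt2 and to Gstt3 were both smaller with the trend removed. The coding sequences of Gstt1 and Gstt3 are 73.4% identical over 698 aligned positions. No stretch of 50 bases of the Gstt1 transcript examined (1105 bases, GENCODE M21) occurs exactly in a transcript of another gene. Of the 50-base stretches of the Gstt3 transcript, 26% also occur in the overlapping gene model Gm20441.

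The promoter window of Gstt1 is shown because this gene carried the only call. It runs from 250 bases before to 50 bases after the start of transcription (RefSeq, build GRCm38.p6, chr10:75797682-75797981, minus strand). It was searched on both strands for the antioxidant response element core TGACNNNGC, the xenobiotic response element core GCGTG, the AP-1 site TGANTCA and the TATA box TATAAA, which would be in capitals. TGACNNNGC can overlap TGANTCA. None of the 4 motifs is in the window.
Gstt1: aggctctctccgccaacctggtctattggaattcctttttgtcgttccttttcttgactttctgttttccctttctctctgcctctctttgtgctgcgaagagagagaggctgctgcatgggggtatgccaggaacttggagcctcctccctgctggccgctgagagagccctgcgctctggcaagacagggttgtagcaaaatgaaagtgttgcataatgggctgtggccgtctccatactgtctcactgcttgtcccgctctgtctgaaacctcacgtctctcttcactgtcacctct
Of all 32851 promoter windows of this length, 12.4% hold TGACNNNGC, 32.4% GCGTG, 7.81% TGANTCA and 13.6% TATAAA. A match is a string of letters and no evidence of binding. Windows were found for 8 of the 10 members, and Gsta4 and Gstt2 were not searched.

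**Figure D2:**
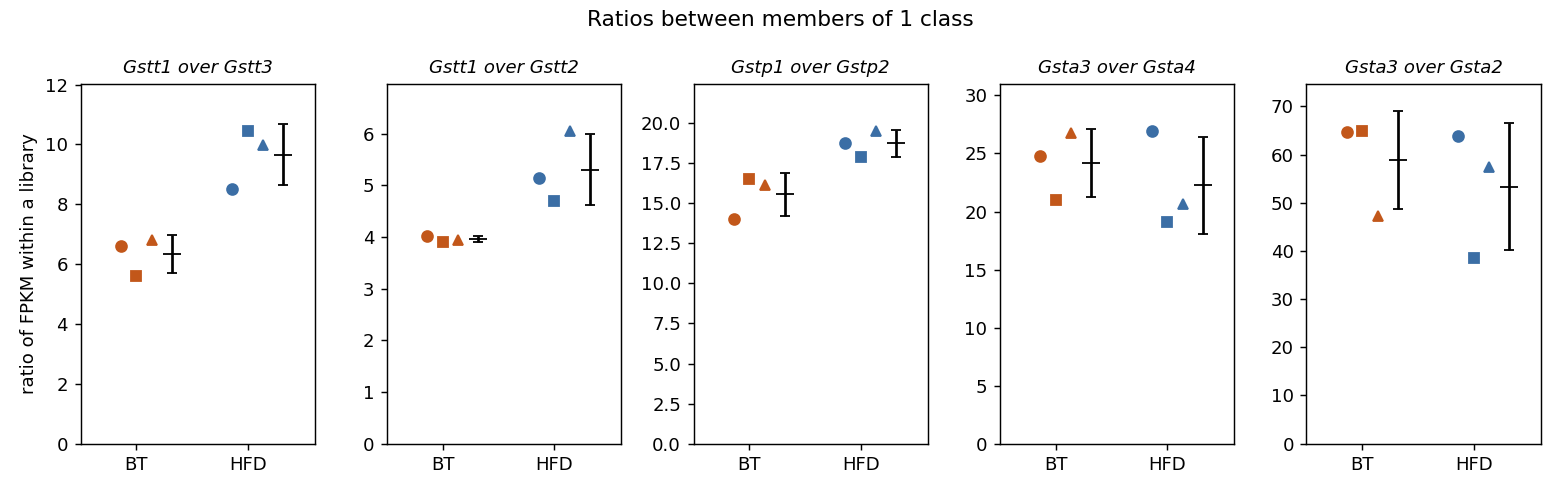
Ratio of FPKM between 2 members of 1 class within each library (linear axes from 0), for the 3 BT and the 3 HFD libraries, with the mean and SD as a black bar and circles, squares and triangles for replicates 1, 2 and 3. The ratios of Gstt1 to Gstt3 and to Gstt2 and of Gstp1 to Gstp2 are lower in every BT library than in every HFD library, while the 2 alpha class ratios overlap.

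The pi class is known to be more abundant in male than in female mouse liver, and its main gene here was Gstp1 (chromosome 19, 4035407 to 4037985, minus strand), which conjugates many electrophiles. Gstp1 was at 333, 299.6 and 333 FPKM in BT and at 381, 504 and 407 FPKM in HFD. The BT values lay below the HFD values, and HFD replicate 2 was the highest. The means were 322 ± 19.1 FPKM in BT and 430.4 ± 64.8 FPKM in HFD (SD, n = 3 each). The log2 change of -0.41 ± 0.13 missed the threshold (adjusted p = 0.0662; 95% interval -0.70 to -0.12), and it passed without HFD replicate 1 (adjusted p = 0.0428). Its neighbour Gstp2 (chromosome 19, 4040285 to 4046023, minus strand) was at 23.7, 18.1 and 20.6 FPKM in BT and at 20.3, 28.1 and 20.8 FPKM in HFD. Those groups overlapped, and the change was -0.14 ± 0.15 (adjusted p = 0.561; 95% interval -0.48 to 0.21). Gstp1 exceeded Gstp2 by 14.0, 16.5 and 16.1 times in the BT libraries and by 18.7, 17.9 and 19.5 times in the HFD libraries, which did not overlap.

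The 2 pi genes are close copies, and the values of both are uncertain for that reason. Their coding sequences, of 633 bases each, differ at 12 positions (98.1% identical). Of the 50-base stretches of the Gstp1 transcript, 62.3% also occur in a Gstp2 transcript, and 64.3% of those of Gstp2 occur in Gstp1. The first 60 coding bases hold 6 of the 12 differences, the most of any window of that size, and are shown (GENCODE M21, GRCm38) with the differing bases in capitals.
Gstp1: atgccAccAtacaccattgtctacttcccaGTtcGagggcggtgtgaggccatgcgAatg
Gstp2: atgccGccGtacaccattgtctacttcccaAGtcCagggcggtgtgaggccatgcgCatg
Fragments that cover differing bases, inside or outside the coding sequence, can be given to 1 gene, and the remaining ones cannot. The sum of Gstp1 and Gstp2 depends less on how fragments were divided between the pair, though 72.6% of the stretches of Gstp2 occur in any other gene, more than in Gstp1. It was 356, 318 and 353 FPKM in BT and 401, 532 and 428 FPKM in HFD. The sum did not overlap between the diets, and its log2 change was -0.40 ± 0.13 (adjusted p = 0.0759).

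The promoter windows of the pair are shown because the genes differ 14.0- to 19.5-fold in level yet share most of the window: 242 of 284 aligned bases (85.2%) are identical. The windows are chr19:4037863-4038162 for Gstp1 and chr19:4042172-4042471 for Gstp2, both on the minus strand (RefSeq, GRCm38.p6). Capitals mark matches to the 4 motifs above.
Gstp1: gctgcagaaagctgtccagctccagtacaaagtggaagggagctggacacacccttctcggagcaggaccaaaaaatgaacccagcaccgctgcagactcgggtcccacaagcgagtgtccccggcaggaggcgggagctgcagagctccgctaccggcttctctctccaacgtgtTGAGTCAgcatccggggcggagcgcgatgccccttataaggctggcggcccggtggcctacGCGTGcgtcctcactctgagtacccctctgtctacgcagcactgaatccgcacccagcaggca
Gstp2: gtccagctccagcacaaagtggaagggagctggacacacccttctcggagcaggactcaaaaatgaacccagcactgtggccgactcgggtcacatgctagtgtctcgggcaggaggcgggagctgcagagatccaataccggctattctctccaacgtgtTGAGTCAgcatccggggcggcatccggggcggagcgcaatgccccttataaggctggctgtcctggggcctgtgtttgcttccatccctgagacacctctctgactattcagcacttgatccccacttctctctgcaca
Both windows hold an AP-1 site TGANTCA, a motif that reads alike on both strands, whose first base is 74 bases before the start in Gstp1 and 89 bases before it in Gstp2. The Gstp1 window also holds GCGTG, first base 13 bases before the start, and the Gstp2 window does not. Neither holds TGACNNNGC or TATAAA. The GC box GGGCGG was searched as well and is not in capitals. Its first base is 60 bases before the start in Gstp1, and 75 and 63 bases before it in Gstp2. Of all promoter windows 35.7% hold that motif.

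Mgst1 is the microsomal transferase, which also reduces lipid peroxides (chromosome 6, 138140316 to 138156755, plus strand). It was at 4565, 5048 and 4568 FPKM in BT and at 6133, 6655 and 5605 FPKM in HFD. Every BT library lay below every HFD library, with means of 4727 ± 278 FPKM in BT and 6131 ± 525 FPKM in HFD (SD, n = 3 each). The change of -0.37 ± 0.13 missed the threshold (adjusted p = 0.0956; 95% interval -0.68 to -0.07), and it passed in none of the 18 alternative settings. No 50-base stretch of its transcript occurs in a transcript of another gene. The more upstream of its 2 annotated promoter windows (chr6:138140277-138140576, plus strand, GRCm38.p6) is shown. Among the 8 members with a window, only this window and that of Gsta3 hold TGACNNNGC. The match is on the reverse strand, in capitals, from 56 bases before the start.
Mgst1: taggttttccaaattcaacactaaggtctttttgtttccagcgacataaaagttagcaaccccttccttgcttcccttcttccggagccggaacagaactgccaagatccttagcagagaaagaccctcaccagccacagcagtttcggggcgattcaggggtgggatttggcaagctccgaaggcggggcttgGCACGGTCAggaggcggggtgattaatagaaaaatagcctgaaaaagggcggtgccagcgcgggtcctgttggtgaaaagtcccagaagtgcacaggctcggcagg

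Mgst1 made up most of the summed FPKM of the 10 members, so it set the sum. The sum was 6966, 7530.0 and 7030.0 FPKM in BT and 8841, 9372 and 8080.0 FPKM in HFD, without overlap. The FPKM sum of the whole table was also lower in every BT library. Its BT mean was 0.9365 of the HFD mean, against 0.8187 for the sum of the 10 members. Without Mgst1 the other 9 members summed to 2401, 2482 and 2462 FPKM in BT and 2708, 2716 and 2475 FPKM in HFD, which overlapped. The share of Mgst1 in the sum was 65.5%, 67.0% and 65.0% in BT and 69.4%, 71.0% and 69.4% in HFD, so the groups did not overlap. Gstt1 held 4.46% ± 0.12 in BT and 5.17% ± 0.44 in HFD (SD, n = 3 each), also without overlap. The shares of Gsta3 (14.7% ± 0.86 in BT and 11.7% ± 1.50 in HFD) and Gstz1 (7.5% ± 0.08 in BT and 5.81% ± 0.52 in HFD) were higher in every BT library. So was the small share of Gstt3 (0.711% ± 0.094 in BT and 0.536% ± 0.014 in HFD). As shares add up to the whole, a lower share of Mgst1 by itself makes the others higher.

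Among the alpha class genes no change passed. Gsta3, the main alpha transferase here and known in mice for detoxifying aflatoxin (chromosome 1, 21240589 to 21265661, plus strand), was at 1032, 1038 and 1089 FPKM in BT and at 1141, 936.9 and 975 FPKM in HFD. The BT values fell inside the HFD range, and the change was 0.05 ± 0.12 (SE, adjusted p = 0.774; 95% interval -0.21 to 0.32). Gsta4, which conjugates the lipid peroxidation product hydroxynonenal (chromosome 9, 78182774 to 78209349, plus strand), was at 41.7, 49.4 and 40.7 FPKM in BT and at 42.3, 49.1 and 47.2 FPKM in HFD. The groups overlapped, with a change of -0.07 ± 0.11 (adjusted p = 0.679; 95% interval -0.33 to 0.19). Gsta2 (chromosome 9, 78331018 to 78355788, minus strand) was at 16.0, 16.0 and 23.1 FPKM in BT and at 17.9, 24.3 and 17.0 FPKM in HFD. BT replicate 3 and HFD replicate 2 each stood above the rest of their group, and the change was -0.10 ± 0.18 (adjusted p = 0.717; 95% interval -0.52 to 0.31). The value of Gsta2 is uncertain, since 64.2% of the 50-base stretches of its transcript also occur in other genes, most of them in Gsta1 (44.8%). Gsta1, which is not a member, varied far more, at 5.78, 20.98 and 23.1 FPKM in BT and at 11.8, 51.5 and 66.5 FPKM in HFD, with overlap (change -1.22 ± 0.66, adjusted p = 0.232). The sum of Gsta1 and Gsta2 differed by -0.76 ± 0.39 (adjusted p = 0.214).

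Gstz1 (chromosome 12, 87147165 to 87164723, plus strand) is also maleylacetoacetate isomerase, the next to last step of tyrosine breakdown. It was at 528, 564 and 522 FPKM in BT and at 565, 506 and 456 FPKM in HFD, and the highest and the lowest value were both in HFD. The change was 0.08 ± 0.11 (SE, adjusted p = 0.635; 95% interval -0.18 to 0.35). Exons of other genes, Pomt2 and Gm6566, cover 12.2% of its exon bases. In the list of tyrosine breakdown genes Pcbd1, which recycles the cofactor tetrahydrobiopterin, fell by 0.77 ± 0.12 (adjusted p = 0.010). Leaving out BT replicate 1 ended the call of Pcbd1 (adjusted p = 0.0532). The enzymes on either side of Gstz1 did not pass: Hgd differed by 0.32 (adjusted p = 0.0574) and Fah by 0.07 (adjusted p = 0.686). Hpd is listed at 0 in all 6 libraries.

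**Figure D3:**
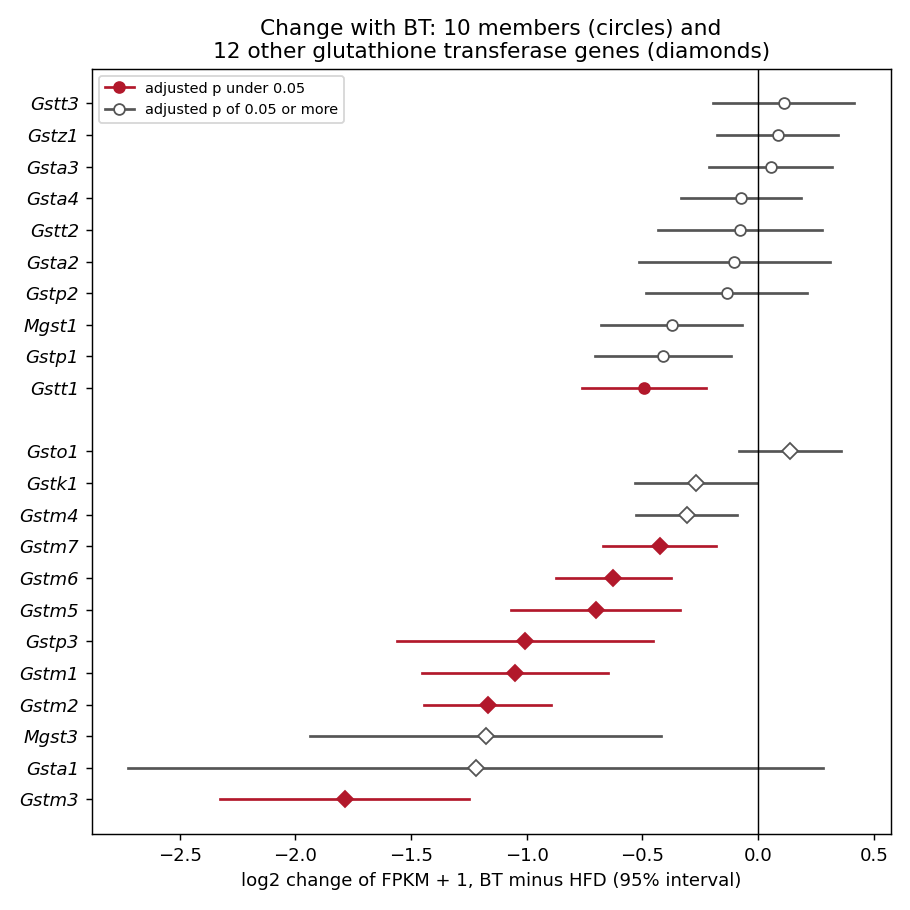
Log2 change of FPKM + 1, BT minus HFD, with limma's 95% interval, for the 10 members (circles, above) and the 12 other glutathione transferase genes tested (diamonds, below), filled red where the adjusted p was under 0.05. Gstt1 is the 1 member called, and 7 of the 12 other genes were called lower.

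Of 18 other glutathione transferase genes 12 were tested, of which 7 fell and none rose, with a median change of -0.86 against -0.09 for the members. The 7 are 6 mu class genes and Gstp3, and of all genes tested 7.33% were called lower, a share not matched for transcript length. With the length and GC trend removed 5 genes of this list were called. Leaving out BT replicate 1 gave 2 calls in this list, BT replicate 2 gave 3, and BT replicate 3 or HFD replicate 2 gave 4, while no filter on low values gave 0. Gstp3, the third pi gene, was at 8.94, 11.6 and 10.2 FPKM in BT and at 13.8, 29.0 and 24.9 FPKM in HFD. Its groups did not overlap, and it fell by 1.01 ± 0.24 (SE, adjusted p = 0.0325), while Gstp1 and Gstp2 did not pass. The call of Gstp3 was lost when any library but HFD replicate 1 was left out (adjusted p up to 0.119). Mgst3, another microsomal gene, was at 7.87, 11.3 and 11.9 FPKM in BT and at 13.0, 35.8 and 30.6 FPKM in HFD, with no overlap and a change of -1.18 ± 0.33 (adjusted p = 0.0508). Gstm2, a mu class gene set beside them for scale, fell by 1.17 ± 0.12 (adjusted p = 0.00293). Gsto1 and Gstk1 did not pass, with changes of 0.14 (adjusted p = 0.347) and -0.27 (adjusted p = 0.144). Whether the members and the other transferases differed in their response was not tested.

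Genes that supply glutathione had 2 of 14 members higher and 1 lower (median 0.17). That is 21.4% called, against 13.3% of all genes tested in either direction. Ahcy, which frees homocysteine for cysteine supply, and Oplah, which returns oxoproline to glutamate, rose by 0.55 and 0.40 (adjusted p = 0.030 and 0.0366). Ggct, which releases that oxoproline, fell by 1.09 (adjusted p = 0.0189). The synthesis enzymes Gclc and Gclm did not pass: Gclc stood at 105 ± 19.4 FPKM in BT and 107 ± 23.1 in HFD, and Gclm at 114 ± 14.7 in BT and 95.7 ± 7.14 in HFD (SD, n = 3 each). Of 6 peroxidases tested Gpx4, which reduces lipid peroxides in membranes as Mgst1 can, was lower, at 233 ± 17.4 FPKM in BT and 456 ± 74.8 FPKM in HFD (adjusted p = 0.00812). In conjugate export and mercapturate formation 4 of 12 were higher and 1 lower (median 0.45). Abcc6, Anpep, a peptidase that trims conjugates, and Abcc2, the canalicular pump for glutathione conjugates, rose by 0.57, 0.45 and 0.98 (adjusted p = 0.0172, 0.0233 and 0.0296). The lower gene, Abcc3, a pump of the blood-facing membrane, was named after its value was seen and fell by 0.48 (adjusted p = 0.0309). Gpx4 was called whichever 1 of the 6 libraries was left out. Ggct missed the threshold without BT replicate 1 or HFD replicate 2, and Abcc6 and Anpep without any 1 BT library. Of the 6 such fits Ahcy passed in 2 (without BT replicate 3 and without HFD replicate 1), Oplah in 1 (without HFD replicate 1), Abcc2 in 1 (without HFD replicate 3) and Abcc3 in 2 (without HFD replicate 1 and without HFD replicate 3), with adjusted p up to 0.138. Without BT replicate 1 the calls numbered 0 in glutathione supply, against 3, and 0 in conjugate export, against 5.

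The NRF2 pathway had 2 of 17 members higher and 1 lower (median -0.02). These were Osgin1 (0.92), Mafg, a small partner protein of NRF2 (0.50), and Me1, malic enzyme (-0.59), with adjusted p of 0.00644, 0.0174 and 0.0377. Nfe2l2, which encodes NRF2, was at 47.3 ± 1.54 FPKM in BT and 53.4 ± 6.02 FPKM in HFD (adjusted p = 0.315), and the classic target Nqo1 at 8.02 ± 2.02 in BT and 9.30 ± 2.06 in HFD (SD, n = 3 each, adjusted p = 0.521). Of 13 genes of the CAR, PXR and AHR pathways 5 were higher and 1 lower (median 0.32), led by Por (1.03, adjusted p = 0.00306), Nr1i3, which encodes CAR (0.94, adjusted p = 0.00351), and Cyp2b9 (-2.04, adjusted p = 0.0148). In place of these 6 calls there were 2 when BT replicate 1 or HFD replicate 2 was left out and 3 when BT replicate 2 was. The NRF2 list had 3 calls, against 1 without BT replicate 1, 2 or 3. Osgin1, Por and Nr1i3 were called whichever library was left out. Mafg missed the threshold without any 1 BT library, Cyp2b9 without BT replicate 1 or HFD replicate 2, and Me1 in every such fit but that without HFD replicate 2 (adjusted p up to 0.124). Over all genes tested 13.3% were called in either direction.

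Markers of other liver cells and of liver zones are given beside these values, and their part in the members' values was not tested. The counts below stand against 13.3% of all genes tested called in either direction. Of 9 pericentral hepatocyte markers 1 was higher, Cyp1a2 (0.77, adjusted p = 0.0249), and the list summed to 11760 to 12380 FPKM in BT and 7989 to 10690 in HFD. Most of that sum is Cyp2e1 (means of 9240 FPKM in BT and 6427 in HFD), which did not pass (adjusted p = 0.0501). The changes of 2 of the 9 markers were below 0, and the median change was 0.40, against 0.07 for all genes tested. For 5 of the 9 every BT value lay above every HFD value, and for 0 every BT value lay below. Of all genes tested 23.2% had all BT values above all HFD values. Of 10 periportal markers 1 was lower, Sds (-0.74, adjusted p = 0.0376), with sums of 2364 to 2416 FPKM in BT and 2194 to 2865 in HFD. None of 8 Kupffer cell and macrophage markers passed, with the smallest p for Cd5l (0.43, adjusted p = 0.0503) and sums of 79.6 to 102 FPKM in BT and 77.0 to 97.1 in HFD. None of 6 sinusoidal endothelial markers passed, with the smallest p for Stab1 (-0.48, adjusted p = 0.0668) and sums of 43.2 to 53.6 in BT and 47.8 to 62.4 in HFD. Of 6 stellate cell markers Col3a1 was lower (-1.36, adjusted p = 0.0354), with sums of 77.5 to 98.8 FPKM in BT and 103 to 161 in HFD. The changes of all 6 were below 0, with a median of -0.42, against 0.07 for all genes tested. Most of these sums is Dcn, which did not pass (adjusted p = 0.116). Of 7 cholangiocyte markers, the bile duct cells in which pi class protein is known to be abundant, 2 were tested and neither passed, with the smaller p for Spp1 (-0.58, adjusted p = 0.164). The list summed to 52.4 to 68.3 FPKM in BT and 58.8 to 121 in HFD, most of it Spp1. Among hepatocyte markers 1 of 10 was lower, Ttr (-0.76, adjusted p = 0.0157). Of the 4 called markers none passed in all 6 fits with 1 library left out: Cyp1a2 and Ttr passed in 3, Col3a1 in 2 and Sds in 1. In each of the endothelial, stellate and lymphocyte lists 1 marker is listed at 0 in all libraries.

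**Figure D4:**
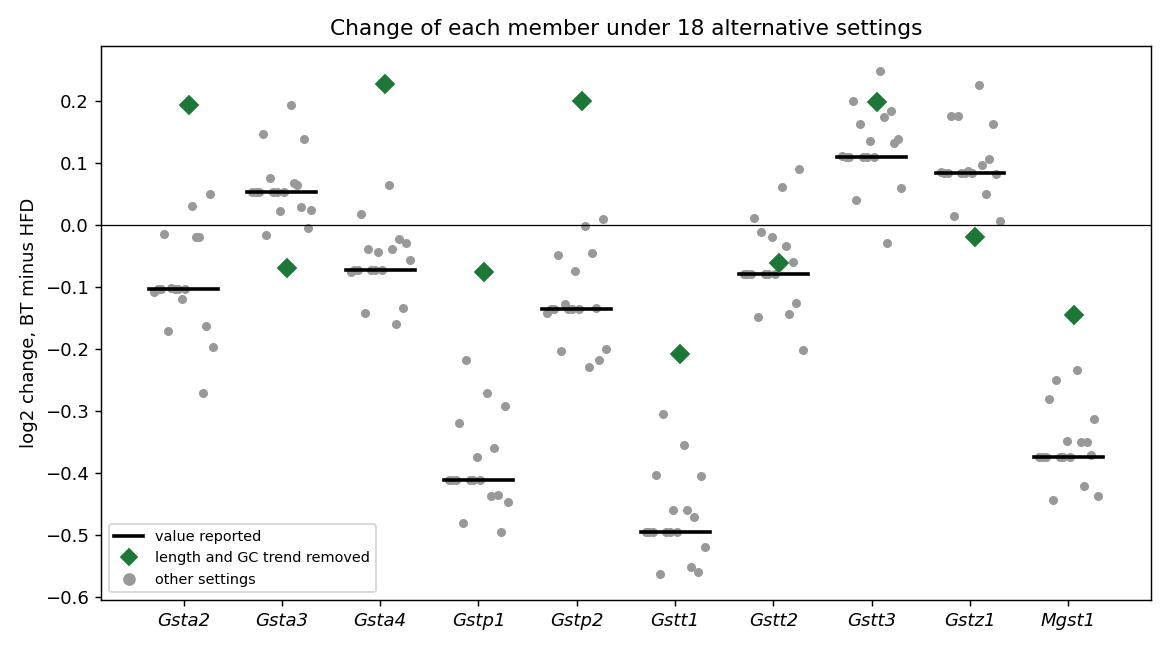
Log2 change of each member, BT minus HFD, as reported (black bar) and under the 18 alternative settings (points), with the setting that takes out trends on length and GC content as a green diamond. Gstp1, Gstt1 and Mgst1 lie below 0 in every setting shown, and each of the other 7 crosses 0 in at least 1.

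The direction of the small changes was not settled by these data. Of the 10 members 7 had a log2 change below 0 and 3 above 0, but each of the 7 members that were not separated between the diets changed sign in at least 1 setting, as the plot of settings shows. Over the 18 alternatives the change of Gstp1 lay between -0.49 and -0.08, that of Gstt1 between -0.56 and -0.21 and that of Mgst1 between -0.44 and -0.15.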

How the data were processed

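Liver mRNA libraries were made with the TruSeq RNA kit, per the labels' protocols. The authors deposited expression as FPKM, 1 column per library, for 23474 Ensembl identifiers. Cufflinks 2.1.1, STAR 2.4.0 and CASAVA 1.8.2 are listed, per the submitters' processing notes, without saying what each was used for. For the build, the annotation and the strand setting: not given in the sources used here. The groups came from the sample titles.

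GENCODE M21 (GRCm38), which may not be the authors' annotation, named 22671 identifiers, all 10 members included. Its coordinates are 1-based. Depth was estimated from the lowest values of FPKM times length, between 0.03 and 0.1, in genes with 1 transcript over 1000 bases. These limits also confine the estimate, so it is no measurement of depth. Reads were not recovered from the FPKM values, so no count test was run. Values were tested as log2(FPKM + 1), which understates the change of low genes, by limma 3.58.1 in R 4.3.3 (eBayes with a variance trend, 4 residual degrees of freedom, two-sided, Benjamini-Hochberg over 10476 genes). An exact permutation test of 3 against 3 libraries has a smallest p of 0.1 and was not used. On simulated data with 10476 genes, 95 of 100 changes of 1 and 99 of 100 of 2 on the log2 scale were recovered, with 14 false calls. The simulated noise was independent between genes and drawn from the fit's own variances, without library effects or a length trend. Both planted sizes exceed the change of any member (the largest was -0.49, for Gstt1). The run therefore does not show how well changes of the members' size are found in the real data.

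The members and the gene lists were chosen with earlier results of these data known. Named genes were all members, the called genes with the 3 smallest p of each other list or, with none called, the 1 smallest. Other transferases could all be named. Further genes named here (Hgd, Fah, Hpd, Gclc, Gclm, Nfe2l2, Nqo1 and Abcc3) were added for their role or after their values were seen. The markers Cyp2e1, Dcn, Apoa1, Cps1, Ass1 and Apob were named after their values were seen. One result of the tyrosine breakdown list is not reported here. The alternatives were a pseudocount of 0.1, no filter, a filter of 5 FPKM, TPM, median-of-ratios and quantile scaling, a replicate block, array weights, robust empirical Bayes, leaving off the variance trend, removal of length and GC trends (natural splines with 5 degrees of freedom) and leaving out each library. TPM without Alb and mt-Co1, both listed at 0 in HFD replicate 3, was chosen after seeing the data. Promoter windows and their motifs come from RefSeq (GRCm38.p6).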

Additional observations from a re-analysis of the deposited data

How the results depend on the processing

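The call of Gstt1 was lost with no filter on low values (-0.49, adjusted p = 0.130), with quantile normalization (-0.31), with the length and GC trend removed (-0.21) and with TPM scaling without Alb and mt-Co1 (-0.35, adjusted p = 0.0515). With 1 library left out it ranged from -0.56 to -0.40. In those 4 settings 0 members were called lower, and with 1 library left out 0 to 2. No member was called higher in any setting. Gstp1 passed without HFD replicate 1 (-0.49), and ranged from -0.49 to -0.29 with 1 library left out. The sum of Gstp1 and Gstp2 ranged from -0.48 to -0.28 in those fits and passed without HFD replicate 1. The sum of Gsta1 and Gsta2 (-0.76) passed with a replicate block (adjusted p = 0.0132) and without HFD replicate 1, and ranged from -1.23 to -0.47 with 1 library left out. The sum of Gstt1 and Gstt3 (-0.42, adjusted p = 0.0498) missed the threshold with a pseudocount of 0.1 (-0.42), no filter (-0.42), no variance trend (-0.42), TPM (-0.33), median-of-ratios scaling (-0.49), quantile normalization (-0.28), array weights (-0.39) and TPM without Alb and mt-Co1 (-0.28), and ranged from -0.49 to -0.34 with 1 library left out, where it passed only without HFD replicate 1 (adjusted p 0.0641 to 0.180 in the other 5 fits).

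Signs turned for members that had not passed. With the length and GC trend removed Gsta2 was at 0.19, Gsta3 at -0.07, Gsta4 at 0.23, Gstp2 at 0.20 and Gstz1 at -0.02. With TPM Gsta4 was at 0.017 and Gstt2 at 0.012, and without Alb and mt-Co1 in the sum Gsta2 was at 0.031, Gsta4 at 0.064 and Gstt2 at 0.061. Median-of-ratios scaling put Gsta3 at -0.016. With 1 library left out Gsta2 ranged from -0.27 to 0.05, Gsta3 from -0.004 to 0.14, Gstp2 from -0.23 to 0.009, Gstt2 from -0.20 to 0.091 and Gstt3 from -0.029 to 0.18. TPM without Alb and mt-Co1 put the median of all genes at 0.20, against 0.07 as deposited.

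Genes called in the whole table numbered 1398, against 88 with no filter and 173 to 1537 with 1 library left out, the fewest without BT replicate 1. Genes called in the pathway lists numbered 27, against 2 with no filter and 6 to 32 with 1 library left out. A fit with 1 library left out has fewer samples; the cause of the other losses was not tested. Same-numbered libraries correlated at 0.163, 0.0972 and 0.147 in their deviations from the group means, and every library correlated best with its own number, a hint from the data and not the design. With the replicate block Gstt1 passed at -0.49 (adjusted p = 0.0197), no other member passed, and 1808 genes were called in the whole table. Gsta2 and Gstp2 rest on the fewest fragments of the members by the rough estimate.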
